A study of Mus musculus with 4 samples.

Results

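The 10 genes described here are Nfe2l2, which encodes the transcription factor NRF2, and 9 genes of antioxidant defence: Nqo1, Hmox1, Gclc, Gclm, Txnrd1, Srxn1, Gstm1, Sod2 and Cat. They were chosen by gene symbol from the 51826 rows of the count matrix. Each symbol matched 1 row, and all 10 were among the 16734 genes compared, whose counts averaged at least 10. NRF2 is held at a low level in resting cells by KEAP1, an adaptor of a CUL3 ubiquitin ligase that marks NRF2 for degradation. Oxidants and electrophiles modify KEAP1, NRF2 protein then accumulates, and with a small MAF partner it binds antioxidant response elements near genes for glutathione, thioredoxin, quinone and heme metabolism. BACH1 competes for the same elements. Control of NRF2 acts largely on the protein, which RNA counts do not measure.

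The libraries came from mouse whisker follicle cells in culture, either dermal papilla cells (DPCs) from the mesenchymal core of the bulb or dermal sheath cells (DSCs) from the layer that wraps the follicle. The donors were C57BL/6J mice carrying an EGFP transgene, aged 5 to 6 weeks, and the labels give the genotype of all samples as WT. The 4 groups were DPCs and DSCs at passage 3, called low-passage, and at passage 9, called high-passage, and the labels name no treatment other than passage. Each group was 1 library, so no difference below has a replicate check, and passage cannot be told apart from any difference in when the cultures were grown or sequenced. The number of animals behind a culture was not given in the sources used here.

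The libraries held 34981284 to 47604059 counts. Levels are CPM, counts scaled to the size of the library with TMM factors, and differences are log2 fold changes of CPM with a prior count of 2. The brackets after a difference hold its exact 95% Clopper-Pearson interval, which compares 2 libraries and covers counting error only. Even counts were in excess (1339 genes with 2 counts and 583 with 3 in low-passage DPCs), a pattern that counting each mate of a pair would give. With halved counts, 8 of the 34 intervals of these genes that excluded 0 no longer did so. Sox2, a dermal papilla marker, had 1677 and 1491 counts in low- and high-passage DPCs and 269 and 178 in DSCs. Lef1, another, had 508 counts in low-passage DPCs but 2 in high-passage DPCs, while Vcan had between 2913 and 5272 counts in every library. Alpl and Corin, papilla markers too, had at most 23 and at most 10 counts in any library. Keratinocyte markers had at most 4 counts in any library. The macrophage list summed to 123 and 85.5 CPM in low- and high-passage DPCs and to 175 and 107 CPM in low- and high-passage DSCs. High-passage DPCs stood apart on the summed CPM of the 10 dermal papilla and sheath markers. The sum was 4685 CPM there and between 14696 and 18580 CPM in the other libraries. Col1a1, Acta2 and Tagln made up most of each sum, so it says little of the other markers. Col1a1 had 7242 and 1218 CPM, Acta2 7123 and 1870 CPM and Tagln 1893 and 602 CPM in low- and high-passage DPCs. Pdgfra, of the same list, went the other way, at 304 and 811 CPM in low- and high-passage DPCs and 121 and 266 CPM in DSCs. The 8 proliferation markers were lower at high passage in both cell types, at 644 and 150 CPM in DPCs and 528 and 227 CPM in DSCs. The part of these shifts in the differences below was not tested.

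NRF2 acts through antioxidant response elements, so the letters of an antioxidant response element core, TGACNNNGC, were searched on both strands in RefSeq promoters (build GRCm38.p6, 250 bases before to 50 after each start). The table held 8 of the 10 genes and not Hmox1 or Gclc. A match was present for 4 of these 8, beside 16.9% of the 10982 compared genes with a promoter in the table. The 4 matches are shown because they mark which of the genes hold the core near a start. Capitals mark the core, and each line runs 5′ to 3′ on the strand of the gene.
Nfe2l2, chr2:75704869-75704913, minus strand: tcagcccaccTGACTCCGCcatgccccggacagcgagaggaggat
Gclm, chr3:122245397-122245457, plus strand: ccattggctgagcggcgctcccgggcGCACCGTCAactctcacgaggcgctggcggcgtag
Srxn1, chr2:152105542-152105570, plus strand: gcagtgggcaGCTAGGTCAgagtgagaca
Txnrd1, chr10:82859088-82859148, plus strand: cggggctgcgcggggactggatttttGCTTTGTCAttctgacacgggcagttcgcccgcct
The core began 240 bases before the start of Nfe2l2 and 134 before that of Gclm. It began 92 bases before 1 of the 3 starts of Txnrd1 and 28 bases after the start of Srxn1. The cores of Gclm, Srxn1 and Txnrd1 lie in the reverse orientation. None of the promoters of Nqo1, Gstm1, Sod2 and Cat held these letters, and bases outside the windows were not searched. A match is a run of letters and no evidence of binding. Of the 4 genes with a match, none differed 2-fold in any comparison below.

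The first question was how much these genes differed between passages and cell types. Most of the 10 genes varied little, and the exceptions were Nqo1 and Hmox1. Fewer transcribing cells and less RNA per cell cannot be told apart in such bulk samples. From the lowest to the highest of the 4 libraries, Nqo1 spanned 3.97-fold and Hmox1 2.85-fold. The other 8 genes spanned between 1.11-fold for Gstm1 and 1.51-fold for Cat. A span of at least 2-fold was seen in 45.8% of all compared genes and in 26.8% of the 6483 with a mean count of at least 1000, a level that 9 of the 10 genes reached.

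**Figure D1:**
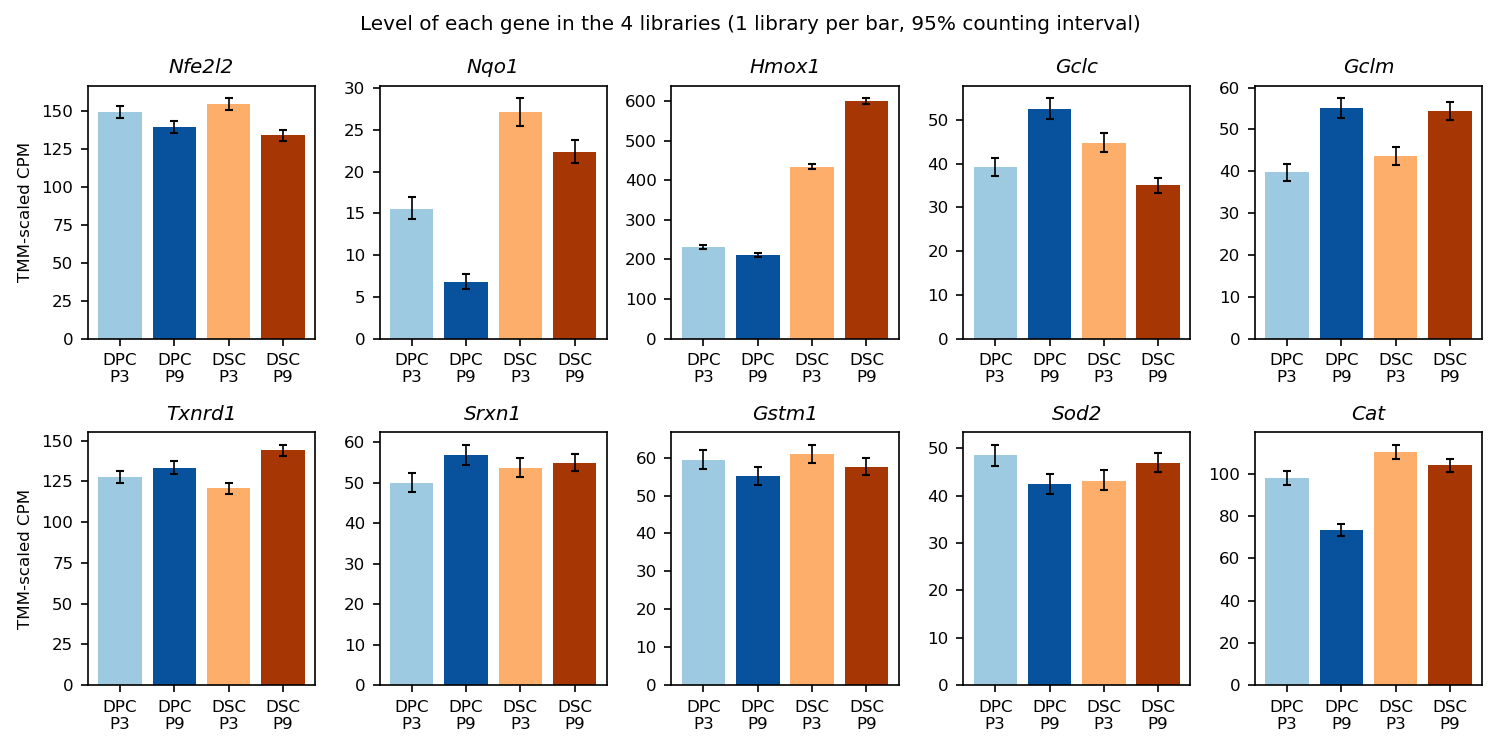
TMM-scaled CPM (y axis, from 0, a scale of its own for each gene) of the 10 genes in the 4 libraries, with 1 library per bar and error bars for the exact 95% Poisson counting interval. Nqo1 ran from 6.80 CPM in high-passage DPCs to 27.1 CPM in low-passage DSCs, and Hmox1 from 210.7 CPM in high-passage DPCs to 601 CPM in high-passage DSCs, while the bars of Gstm1, Srxn1 and Nfe2l2 were nearly level.

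Between genes, levels were compared as the deposited FPKM, which accounts for transcript length. Hmox1 stood highest in all 4 libraries, at 135 and 123 FPKM in low- and high-passage DPCs and 241 and 326 FPKM in low- and high-passage DSCs. Nfe2l2 came next in each, between 46.2 and 55.7 FPKM. Gstm1, Txnrd1 and Cat took the middle places, between 25.9 and 43.4 FPKM, and Srxn1 followed at 17.9 to 20.9 FPKM. The lowest 4 were Sod2, Gclc, Gclm and Nqo1, and the order within them differed between libraries. Nqo1 was the lowest of all in high-passage DPCs, at 4.01 FPKM.

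Nfe2l2 (ENSMUSG00000015839, chr2:75675513-75704641, GRCm38, minus strand) had 5504 and 5020 counts in low- and high-passage DPCs and 5872 and 6112 in low- and high-passage DSCs. In CPM these were 149.6, 139.9, 155 and 134. All 4 levels lay within 1.15-fold of each other, and the transcript was slightly lower at high passage in both cell types. The passage difference was -0.10 (-0.15 to -0.04) in DPCs and -0.21 (-0.26 to -0.16) in DSCs. DPCs and DSCs differed by -0.05 (-0.10 to 0.00) at low passage and 0.06 (0.01 to 0.11) at high passage, on the log2 scale as DPCs over DSCs. The sign of the low-passage value changed with total-count or FPKM scaling.

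Nqo1, the NAD(P)H quinone reductase that is often used as a readout of NRF2 activity, had the widest spread of the 10 genes. Its counts (ENSMUSG00000003849, chr8:107388225-107403206, minus strand) were 573 and 244 in low- and high-passage DPCs and 1028 and 1020 in low- and high-passage DSCs. The levels were 15.6, 6.80, 27.1 and 22.4 CPM in that order. Both DPC libraries lay below both DSC libraries, and the high-passage library was the lower one in each cell type. High-passage DPCs were 2.28-fold below low-passage DPCs, a log2 fold change of -1.19 (-1.42 to -0.98) that ranged from -1.23 to -1.03 under the other scalings and settings. The interval reaches below a 2-fold difference. In DSCs the passage difference was -0.28 (-0.40 to -0.15). DPCs were 1.74-fold below DSCs at low passage, at -0.80 (-0.95 to -0.65), and 3.28-fold below at high passage, at -1.71 (-1.93 to -1.52).

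Hmox1, the inducible heme oxygenase that opens the heme ring to biliverdin, iron and carbon monoxide, was higher in DSCs than in DPCs at both passages. Its counts (ENSMUSG00000005413, chr8:75093621-75100589, plus strand) were 8471 and 7563 in low- and high-passage DPCs and 16476 and 27374 in low- and high-passage DSCs. The levels were 230.2, 210.7, 435 and 601 CPM in that order, so both DSC libraries lay above both DPC libraries. With passage, Hmox1 was slightly lower in DPCs, at -0.13 (-0.17 to -0.08), and 1.38-fold higher in DSCs, at 0.47 (0.44 to 0.50). DPCs were 1.89-fold below DSCs at low passage, at -0.92 (-0.95 to -0.88), and 2.85-fold below at high passage, at -1.51 (-1.55 to -1.47). Macrophages express Hmox1. The summed macrophage markers given above were lower in DPCs than in DSCs at both passages, as Hmox1 was. They were lower at high passage in DSCs, where Hmox1 was higher. Lyz2 made up most of each sum, at 92.3 and 54.7 CPM in low- and high-passage DPCs and 131 and 78.3 CPM in DSCs. Not every marker followed the sum. Cd14 was higher at high passage, at 5.63 and 20.9 CPM in DPCs and 7.07 and 12.1 CPM in DSCs. Cd14 and Ptprc were higher in DPCs than in DSCs at high passage. The part of macrophages in the Hmox1 differences was not tested. Hmox1 held 26.8% and 25.5% of the summed CPM of the 10 genes in low- and high-passage DPCs, and 39.7% and 47.9% in low- and high-passage DSCs. Without it, the other 9 genes summed to between 615 and 659 CPM in every library.

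Gclc and Gclm encode the catalytic and the modifier subunit of glutamate-cysteine ligase, the rate-limiting enzyme of glutathione synthesis. Gclc (ENSMUSG00000032350, chr9:77754535-77794485, plus strand) had 1443 and 1889 counts in low- and high-passage DPCs and 1699 and 1598 in DSCs, or 39.2, 52.6, 44.8 and 35.1 CPM. It was higher with passage in DPCs, at 0.42 (0.32 to 0.52), and lower in DSCs, at -0.35 (-0.45 to -0.25). High-passage DPCs lay above high-passage DSCs, at 0.59 (0.49 to 0.68), whereas low-passage DPCs were slightly below low-passage DSCs, at -0.19 (-0.29 to -0.09).

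Gclm (ENSMUSG00000028124, chr3:122245557-122270732, plus strand) had 1461 and 1975 counts in low- and high-passage DPCs and 1652 and 2478 in DSCs, or 39.7, 55.0, 43.6 and 54.4 CPM. Both high-passage libraries lay above both low-passage libraries. The passage difference was 0.47 (0.37 to 0.57) in DPCs and 0.32 (0.23 to 0.41) in DSCs. The DSC value did not hold on the deposited FPKM, where it was -0.01 on the log2 scale, and 3.92% of the 50-base windows of Gclm transcripts also occur in other genes such as Ppia. The ratio of Gclc to Gclm in FPKM was 1.43 and 1.46 in low- and high-passage DPCs and 1.20 and 0.914 in low- and high-passage DSCs.

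The thioredoxin genes differed less. Txnrd1, the cytosolic reductase that keeps thioredoxin reduced, had 4692 and 4787 counts in low- and high-passage DPCs and 4574 and 6563 in DSCs (ENSMUSG00000020250, chr10:82833951-82897712, plus strand). Its levels of 128, 133, 121 and 144 CPM gave passage differences of 0.06 (0.01 to 0.12) in DPCs and 0.26 (0.20 to 0.31) in DSCs. Srxn1, sulfiredoxin, which repairs over-oxidised peroxiredoxins, had 1841 and 2043 counts in low- and high-passage DPCs and 2035 and 2505 in DSCs (ENSMUSG00000032802, chr2:152105516-152111376, plus strand). In CPM it stood at 50.03, 56.9, 53.7 and 55.0, with passage differences of 0.19 (0.09 to 0.28) in DPCs and 0.03 (-0.05 to 0.12) in DSCs. Both genes were thus within 1.19-fold across the 4 libraries, and the interval of Srxn1 in DSCs included 0.

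Gstm1, a mu class glutathione S-transferase that conjugates electrophiles, was the most even of the 10 genes. It had 2190 and 1977 counts in low- and high-passage DPCs and 2311 and 2624 in DSCs (ENSMUSG00000058135, chr3:108012255-108017973, minus strand), or 59.5, 55.1, 60.9 and 57.6 CPM. The passage differences were -0.11 (-0.20 to -0.02) in DPCs and -0.08 (-0.16 to -0.0007) in DSCs, and with halved counts both intervals included 0. Counts of Gstm1 are uncertain, because 18.9% of its 50-base windows also occur in copies such as Gstm2-ps1 and Gstm3.

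Sod2 and Cat remove superoxide in mitochondria and hydrogen peroxide in peroxisomes. Sod2 had 1786 and 1523 counts in low- and high-passage DPCs and 1639 and 2143 in DSCs (ENSMUSG00000006818, chr17:13007839-13018119, plus strand), or 48.5, 42.4, 43.2 and 47.0 CPM. It was lower with passage in DPCs, at -0.19 (-0.29 to -0.09), and higher in DSCs, at 0.12 (0.03 to 0.22), where the interval with halved counts included 0. Other genes hold 2107 of the 10012 windows of 50 bases of Sod2, so its counts are uncertain too. Cat had 3601 and 2627 counts in low- and high-passage DPCs and 4189 and 4737 in DSCs (ENSMUSG00000027187, chr2:103453849-103485160, minus strand), or 97.9, 73.2, 110.5 and 104 CPM. High-passage DPCs were the lowest library. The passage difference of Cat was -0.42 (-0.49 to -0.35) in DPCs and -0.09 (-0.15 to -0.03) in DSCs, and DPCs were 1.42-fold below DSCs at high passage, at -0.51 (-0.58 to -0.44).

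Counted over the 10 genes, 1 was at least 2-fold lower with passage in DPCs (Nqo1) and 0 were 2-fold higher, beside 15% and 16.1% of all compared genes. In DSCs 0 genes were 2-fold higher or lower with passage, beside 14.8% of all compared genes in either direction. At a mean count of at least 1000, which 9 of the 10 genes reached, the share was smaller. There 18.7% of compared genes differed 2-fold in either direction in DPCs and 4.92% in DSCs. The passage difference had opposite signs in DPCs and DSCs for 3 of the 10 genes (Hmox1, Gclc and Sod2), beside 29.6% of all compared genes. No gene of the 10 reached the 4-fold difference that the study used, beside 9.94% of all compared genes in DPCs and 3.82% in DSCs. The median log2 fold change with passage over the 10 genes was -0.10 in DPCs and -0.02 in DSCs, beside 0.03 and 0.00 over all compared genes. Their median absolute log2 fold change was 0.19 in DPCs and 0.23 in DSCs. Over the 6483 compared genes with a mean count of at least 1000 it was 0.47 and 0.24, so the 10 genes lay below such genes in DPCs and near them in DSCs. This describes 1 library per group and is no test.

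**Figure D2:**
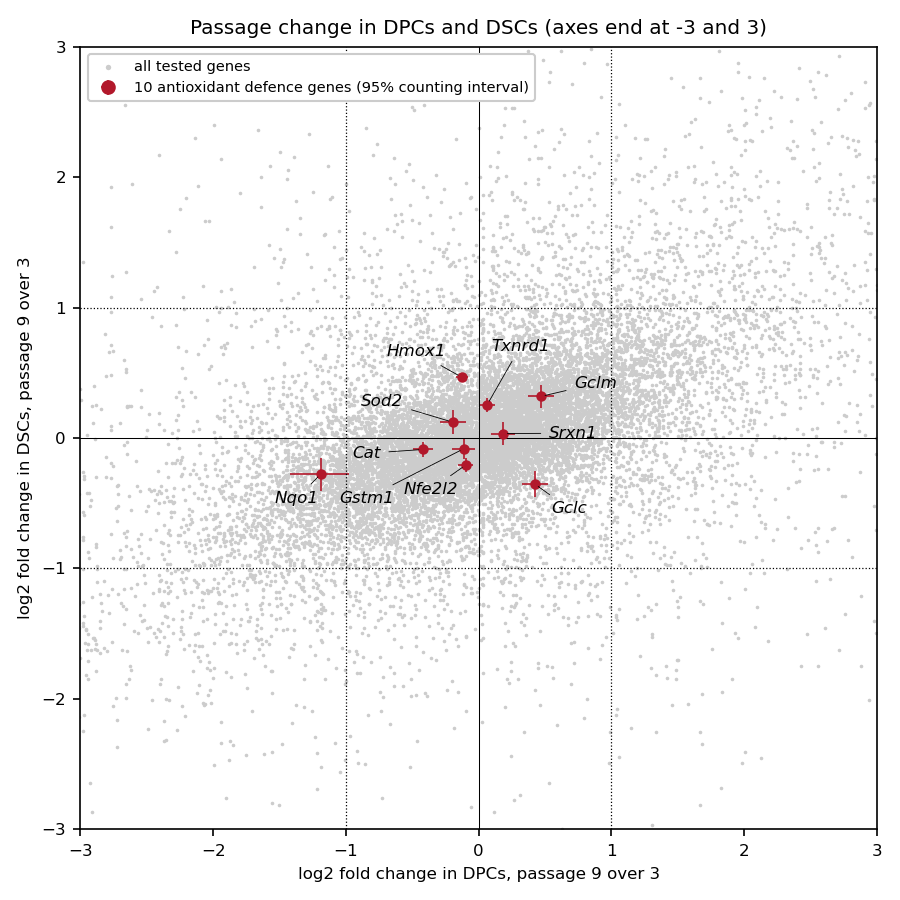
Log2 fold change of passage 9 over passage 3 in DPCs (x axis) and in DSCs (y axis) for all compared genes (grey; axes end at -3 and 3) and the 10 genes (red, with 95% counting intervals), with dotted lines at a 2-fold difference. Nqo1 lies beyond 2-fold in DPCs at -1.19, and Hmox1, Gclc and Sod2 lie in the quadrants where the cell types differ in sign.

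Passage was also tested over all compared genes in an additive model that takes cell type into account. This model has 1 residual degree of freedom, given by the disagreement of DPCs and DSCs and not by replicate cultures. With the edgeR quasi-likelihood test, adjusted by the Benjamini-Hochberg method, 0 of the 10 genes and 0% of all compared genes had an adjusted p under 0.05 for passage. At an unadjusted p under 0.05 there were 0 of the 10 genes and 16.9% of all compared genes. The adjusted p of the 10 genes lay between 0.334 for Nqo1 and 0.958 for Gclc. DESeq2 called 0 of the 10 genes and 6.06% of those it tested, with an adjusted p of 0.376 for Nqo1.

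The second question was how DPCs and DSCs differed at the same passage. At low passage 0 of the 10 genes differed 2-fold, beside 13.3% of all compared genes. Among compared genes with a mean count of at least 1000, 5.04% did so at low passage and 9.69% at high passage. At high passage 2 genes, Nqo1 and Hmox1, were at least 2-fold lower in DPCs and 0 were higher, beside 11% and 9.11% of all compared genes. Both were already the 2 lowest ratios of DPCs to DSCs at low passage. The other 8 genes lay between -0.19 for Gclc and 0.17 for Sod2 at low passage and between -0.51 for Cat and 0.59 for Gclc at high passage. The 2 cell type comparisons and the 2 passage comparisons share libraries, so they are not independent of each other.

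**Figure D3:**
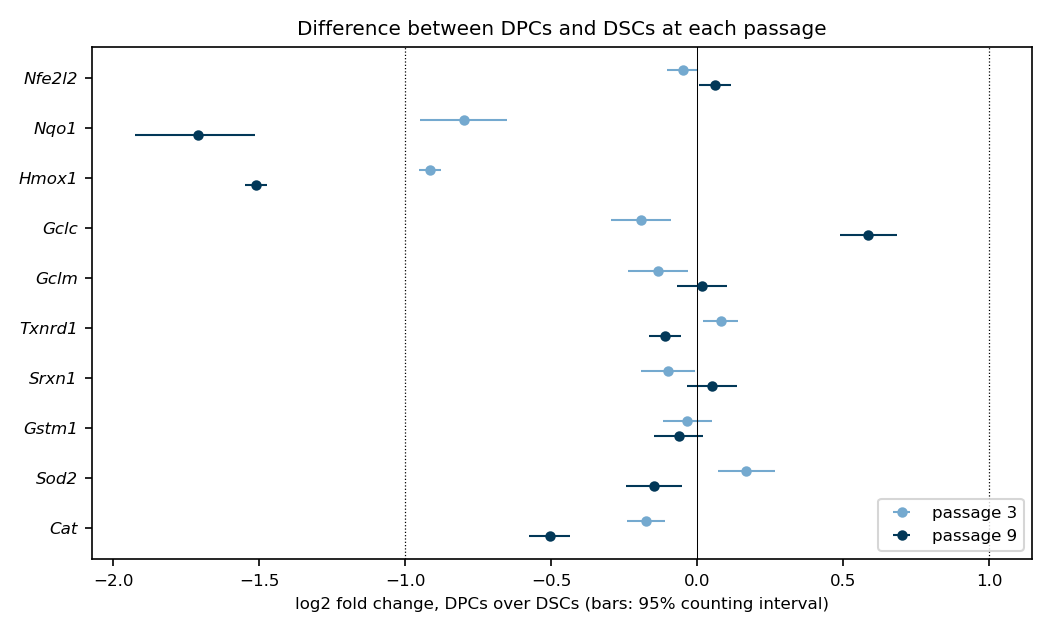
Log2 fold change of DPCs over DSCs (x axis) for each of the 10 genes at passage 3 (light) and passage 9 (dark), with bars for the 95% counting interval and dotted lines at a 2-fold difference. Nqo1 and Hmox1 lie left of 0 at both passages, at -1.71 and -1.51 at passage 9, and Gclc lies on opposite sides of 0 at the 2 passages.

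The regulators of NRF2 were read next. Keap1 (the adaptor described above) had 1455 and 2414 counts in low- and high-passage DPCs and 1738 and 2222 in DSCs, with passage differences of 0.77 (0.67 to 0.86) in DPCs and 0.09 (-0.002 to 0.18) in DSCs. Cul3, the ligase scaffold, differed by 0.04 in DPCs and by -0.20 in DSCs. Maff was 2.45-fold higher in high-passage than in low-passage DPCs, at 1.29 (1.19 to 1.39), and 0.56 (0.46 to 0.65) higher in DSCs on the log2 scale. The other small MAF genes differed by 0.68 and 0.36 for Mafk and by 0.44 and 0.02 for Mafg, in DPCs and DSCs. Bach1 was lower with passage in both, at -0.65 (-0.76 to -0.53) in DPCs and -0.26 (-0.37 to -0.15) in DSCs. Sqstm1, which encodes p62, a protein that can bind KEAP1 and divert it from NRF2, was lower by nearly the same amount in both, at -0.74 (-0.78 to -0.71) and -0.71 (-0.74 to -0.68). Nfe2l1, which encodes a relative of NRF2, differed by 0.36 in DPCs and by 0.12 in DSCs. Of the 10 regulators listed, Nfe2l2 included, 1 was 2-fold higher (Maff) and 1 was 2-fold lower with passage in DPCs, beside 16.1% and 15% of all compared genes, and 0 were so in DSCs, beside 14.8% in either direction. The lower gene was Sesn2, a stress-induced sestrin named after its values were seen, at -1.08 (-1.18 to -0.99) in DPCs and -0.41 (-0.48 to -0.34) in DSCs. Reads of genes on the opposite strand cannot be told apart for 10.9% of the exon bases of Keap1, 4.33% of Mafk and 17.3% of Sqstm1, since the use of strand was not stated.

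**Figure D4:**
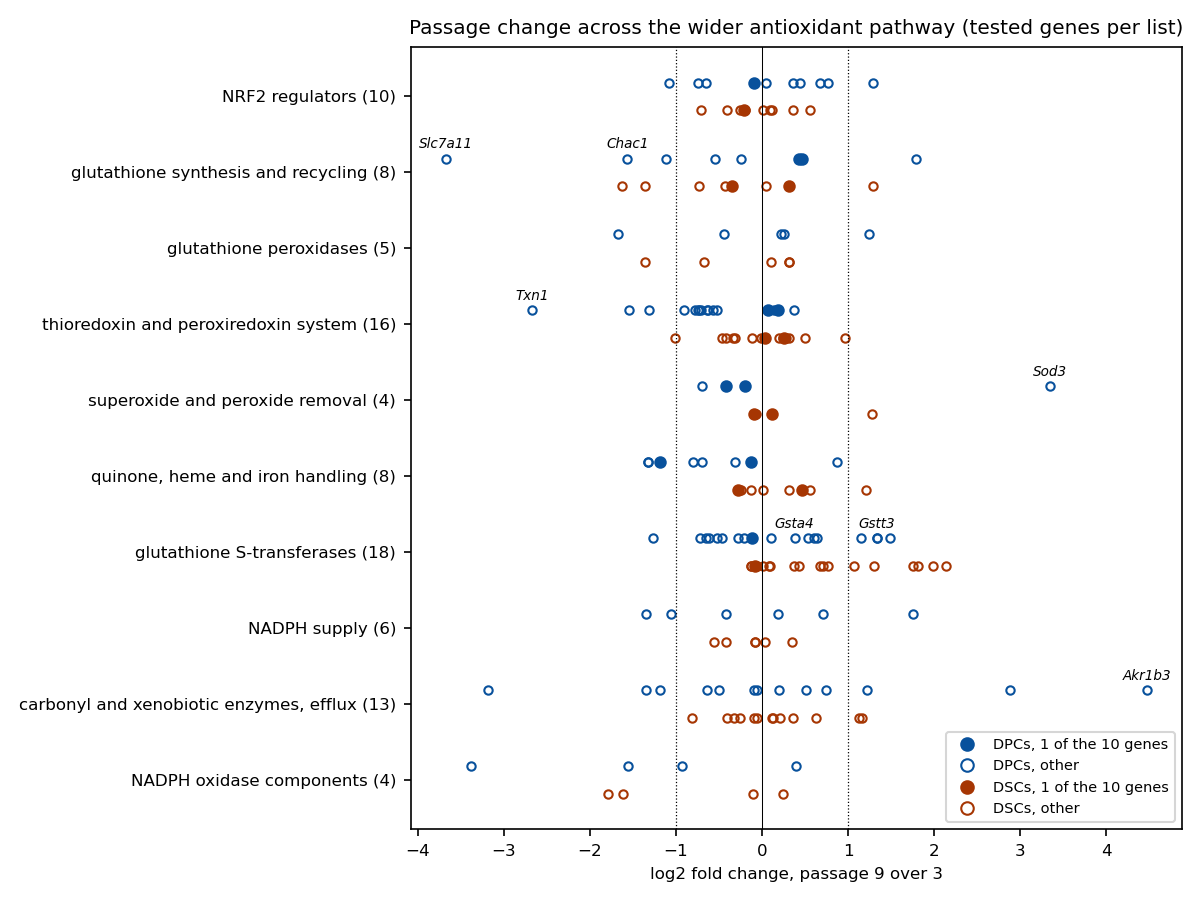
Log2 fold change of passage 9 over passage 3 (x axis) for every compared gene of 10 pathway lists (rows, number of genes in brackets), in DPCs (blue) and DSCs (orange), with filled points for the 10 genes and dotted lines at a 2-fold difference. The filled points stay between -1.19 and 0.47, while the other genes of the lists reach from -3.67 for Slc7a11 to 4.47 for Akr1b3 in DPCs.

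The wider pathway lists held 101 genes, of which 92 were compared. Apart from the 10 genes there were 82. At 2-fold, 12 of these were higher and 18 lower with passage in DPCs, or 36.6% together beside 31.1% of all compared genes. In DSCs 11 were higher and 6 lower, or 20.7% together, beside 8.55% higher and 6.21% lower of all compared genes. Their median log2 fold change was -0.46 in DPCs and 0.06 in DSCs. Of the 75 with a mean count of at least 100, the 7 that met the naming rule are described. A difference of at least 2-fold the same way in both cell types was itself part of that rule. Of the 75, 6 met this part. Over all compared genes, 4.86% were 2-fold higher and 3.54% 2-fold lower in both.

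The largest passage differences of the lists lay outside the 10 genes. Slc7a11, the cystine importer that supplies cysteine for glutathione and a well-known NRF2 target, had 493 and 36 counts in low- and high-passage DPCs and 731 and 284 in DSCs. Its passage differences were -3.67 (-4.27 to -3.25) in DPCs and -1.62 (-1.83 to -1.43) in DSCs. Gclm differed in the opposite direction, but in DSCs this did not hold on the deposited FPKM, where Gclm was at -0.01. On the deposited FPKM the differences of Slc7a11 were -2.89 and -1.49 with a pseudocount of 0.1. With a pseudocount of 1 they were -1.11 and -0.83, so the 2-fold difference in DSCs was lost. Chac1, which degrades glutathione, was lower in both as well, at -1.56 (-1.74 to -1.40) and -1.36 (-1.49 to -1.24). Txn1, thioredoxin itself, had 6369 and 973 counts in low- and high-passage DPCs and 5105 and 3050 in DSCs, at -2.67 (-2.77 to -2.58) and -1.01 (-1.07 to -0.94), while its reductase Txnrd1 differed by 0.06 and 0.26. Over the 16 thioredoxin and peroxiredoxin genes, 3 were 2-fold lower and 0 higher in DPCs with a median of -0.67, beside 15% lower and 16.1% higher of all compared genes. In DSCs 1 was lower and 0 higher with a median of 0.11, beside 6.21% lower and 8.55% higher.

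Sod3, the secreted superoxide dismutase, was the clearest contrast to Sod2. It had 4132 and 40960 counts in low- and high-passage DPCs and 8686 and 25397 in DSCs. High-passage DPCs were 10.2-fold above low-passage DPCs, at 3.34 (3.30 to 3.39), and DSCs differed by 1.28 (1.25 to 1.32). Akr1b3, the aldose reductase that reduces sugars and reactive aldehydes, had 4286 and 92817 counts in low- and high-passage DPCs and 2625 and 6879 in DSCs. Its passage difference in DPCs was 4.47 (4.43 to 4.52) and that in DSCs was 1.12 (1.06 to 1.19), and DPCs lay 17.1-fold above DSCs at high passage, with 9.48% of its 50-base windows shared with copies such as Gm6644.

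Among the 18 compared glutathione S-transferase genes, 4 were 2-fold higher and 1 lower with passage in DPCs, beside 16.1% and 15% of all compared genes. In DSCs 6 were higher and 0 lower, beside 8.55% and 6.21%. Gsta4, which conjugates the lipid peroxidation product 4-hydroxynonenal, had 372 and 472 counts in low- and high-passage DPCs and 79 and 426 in DSCs, at 0.38 (0.18 to 0.58) and 2.14 (1.82 to 2.53). Gstt3, a theta class transferase, was higher in both, at 1.33 (1.19 to 1.48) and 1.07 (0.93 to 1.20), where the second fell to 0.98 on FPKM with a pseudocount of 1, and shares 13.6% of its exon bases with Gm20441. Gstm1, by contrast, differed by at most 0.11 in either direction with passage.

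The remaining lists are given by their counts at 2-fold with passage, to be read beside 31.1% of all compared genes in DPCs and 14.8% in DSCs in either direction. Of the 8 genes of glutathione synthesis and recycling, 1 was higher and 3 lower in DPCs, and 1 was higher and 2 lower in DSCs. Of the 8 genes of quinone, heme and iron handling, 0 were higher and 3 lower in DPCs, Nqo1 among them, and 1 was higher and 0 lower in DSCs. The 6 genes of NADPH supply had 1 higher and 2 lower in DPCs and 0 in DSCs. The 13 compared carbonyl and xenobiotic enzymes and efflux pumps had 3 higher and 3 lower in DPCs and 2 higher and 0 lower in DSCs. The 4 compared NADPH oxidase components had 0 higher and 2 lower in each cell type, and the 4 genes of superoxide and peroxide removal had 1 higher (Sod3) and 0 lower in each.

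The glutathione peroxidases, which use glutathione to reduce peroxides, included 2 genes that were at least 2-fold lower in DPCs than in DSCs at both passages. Gpx1 and Gpx3 are named after their values were seen. Gpx1, the cytosolic form, had 716 and 837 counts in low- and high-passage DPCs and 5753 and 8584 in DSCs, so that DPCs differed from DSCs by -2.96 (-3.08 to -2.85) at low passage and -3.01 (-3.12 to -2.91) at high passage. Gpx3, the secreted form, had 1012 and 2339 counts in low- and high-passage DPCs and 25453 and 11903 in DSCs. DPCs differed from DSCs in Gpx3 by -4.61 (-4.70 to -4.52) at low passage and -2.002 (-2.07 to -1.94) at high passage. The passage difference of Gpx3 was 1.24 (1.14 to 1.35) in DPCs and -1.36 (-1.39 to -1.33) in DSCs. Of the 5 peroxidase genes, 0 were 2-fold higher and 2 were lower in DPCs than in DSCs at low passage, beside 13.3% of all compared genes in either direction. At high passage 0 were higher and 3 lower, beside 9.11% and 11%. Nqo1 and Hmox1 were lower in DPCs than in DSCs at both passages too.

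The genes whose pattern over the 4 libraries was most like that of Nqo1 were then sought among 12191 genes with a mean count of at least 100, by the Euclidean distance of centred log2 CPM. The nearest was C530008M17Rik at a distance of 0.12, with 688 and 324 counts in low- and high-passage DPCs and 1363 and 1317 in DSCs. Pdgfc, a platelet-derived growth factor, followed at 0.14 with 3223 and 1257 counts in DPCs and 5098 and 5476 in DSCs. Htra3, a secreted serine protease, came next at 0.15 with 94 and 36 counts in DPCs and 165 and 180 in DSCs. A likeness over 4 libraries is a description.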

How the data were processed

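RNA sequencing of low- and high-passage DPCs and DSCs gave 4 libraries, 1 per group. The authors deposited raw counts per gene, which were not normalized, and FPKM per library, which the authors scaled for transcript length and depth. The submitters' processing notes name Bowtie 0.12.2 and builds mm8 and mm9, but the deposited positions are those of GRCm38. Of 51826 IDs, 51633 were found in GENCODE M21, 94.1% with an identical position, and 9 of the 10 genes matched (Sod2 differed). The counting program and use of strand were not given in the sources used here. The labels and the study's methods name different library kits.

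Counts were scaled with TMM in edgeR 4.0.16 (R 4.3.3, limma 3.58.1), with a minimum mean count of 10 and a prior count of 2. Intervals were 95% Clopper-Pearson intervals of a library's share of the counts of 2 libraries (scipy 1.17.1). Differences of at least 2-fold, and of 4-fold as in the study, were counted. Passage was tested beside cell type by the edgeR quasi-likelihood method, with DESeq2 1.42.0 as alternative, and the scripts were tested on simulated data. Named genes were the 10 genes, 8 regulators, list genes of mean count at least 100 that differed with passage at least 2-fold the same way in both cell types or 4-fold in 1, and the 3 genes nearest to the gene with the widest range. Sharing of sequence was read from 50-base windows of GENCODE M21 transcripts. The 10 genes, the lists and the rules were chosen with earlier results of these data known.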

Additional observations from a re-analysis of the deposited data

Results flagged for a closer look

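Hmox1, Gclc and Sod2 had passage differences of opposite sign in DPCs and DSCs, each with a counting interval that excluded 0 in both cell types. On the log2 scale the DPC difference minus the DSC difference was -0.59 for Hmox1, 0.78 for Gclc and -0.32 for Sod2 (-0.315 before rounding). With 1 library per group the difference between the cell types was not tested, and 29.6% of all compared genes had opposite signs in DPCs and DSCs at any size. With halved counts the interval of Sod2 in DSCs (-0.01 to 0.25) included 0.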

How the results depend on the processing

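The counts of genes past 2-fold among the 10 were the same under all 9 alternatives of scaling, prior count, minimum and unit in each comparison. Of 360 single-gene values under these alternatives, 311 stayed within their counting interval, 49 did not, and 14 changed sign, none of them a value over 0.32 in size. Sign changes concerned Gclm and Srxn1 for passage in DSCs (on FPKM) and Nfe2l2, Gstm1 and Gclm between the cell types. The median over the 10 genes for passage in DSCs was -0.12 on FPKM with either pseudocount, 0.1 or 1 (-0.1212 and -0.1184), in place of -0.02. Between DPCs and DSCs at high passage it was 0.01 with total counts (0.0126) and -0.02 (-0.0153) and -0.01 (-0.0141) on FPKM, in place of -0.09. The number of all genes called for passage in the additive model was 0 with edgeR and 955 with DESeq2, while the number among the 10 was 0 with both. Genes differing 2-fold with passage in DPCs numbered 5209, against 2444 on FPKM with a pseudocount of 1, 9280 with no minimum and 2965 with a minimum of 100. In DSCs they numbered 2470, against 685, 5217 and 1117. Between cell types they numbered 2225 against 649, 5377 and 981 at low passage, and 3359 against 1250, 6559 and 1710 at high passage. Slc7a11 (-0.83) and Gstt3 (0.98) fell short of 2-fold in DSCs on FPKM with a pseudocount of 1, and Slc7a11 in DPCs moved from -3.67 to -1.11, under alternatives that were added after seeing the data. The median of all genes shifted by at most 0.10. Without replicates no library could be left out. The labels give no replicate numbers, so no fit with a replicate block was made, and the additive model above compares passages within cell types. The limit is 1 library per group, which no depth offsets.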
